A study of Mus musculus with 15 samples.

Results

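The clustered protocadherin genes were examined in RNA precipitated from ST2 cells, a mouse bone marrow stromal line, with an antibody against Arid5a or with mouse IgG2b (RNA immunoprecipitation and sequencing, RIP-seq). The members were the gene symbols of the deposited count table that begin with Pcdha, Pcdhb, Pcdhga, Pcdhgb, Pcdhgc or Pcdhac followed by a number, with a total of at least 10 counts over the 15 libraries. Of 58 such symbols among 25239 genes, 56 were members: 12 of the alpha cluster, 22 of the beta cluster and 22 of the gamma cluster. The family was selected on a value of these data, the drop of Pcdhga9 in the Arid5a relative to the IgG precipitate after IL-17, so that value is a description here and supports nothing.

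The libraries fall into 4 groups of the same line, all fixed with 1% formaldehyde and treated with DNase I after precipitation. These are the Arid5a RIP after IL-17 at 200 ng/mL for 3 h (4 libraries), the IgG RIP after the same IL-17 treatment (3 libraries, numbered 2, 3 and 4), the Arid5a RIP in medium (4 libraries) and the IgG RIP in medium (4 libraries). Nothing says that libraries of a group came from separate cultures, so p-values measure the spread between these libraries, which may be technical. Arid5a is known to bind mRNAs of inflammatory genes such as Il6 and to prolong their life, and the series set out to find the transcripts it binds. Both arms are precipitates; unprecipitated RNA was not analysed here, so a level below is a level in a precipitate and not in the cell.

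Clustered protocadherins are cell-surface proteins of the cadherin superfamily that neurons use to tell their own processes from those of other neurons. Each alpha and gamma isoform begins with its own variable first exon, read from its own promoter and spliced to constant exons that all isoforms of that cluster share, whereas each beta gene is a single large coding exon with no shared part. Single neurons read a few variable isoforms by stochastic promoter choice, in which DNA methylation, CTCF and cohesin take part. The C-type isoforms, Pcdhac1, Pcdhac2, Pcdhgc3, Pcdhgc4 and Pcdhgc5, stand at the ends of the alpha and gamma clusters and are read more uniformly, and Pcdhgc3 is the one known to be widespread outside the nervous system.

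The layout of the clusters bears on how far single members can be told apart. In the RefSeq annotation of GRCm38.p6 (mm10) the alpha models lie on chromosome 18 from 36930285 to 37188897, the beta models from 37264998 to 37521419 and the gamma models from 37661775 to 37841873. All 12 alpha models end between 37187657 and 37188897 and all 22 gamma models between 37840489 and 37841873, where the constant exons of each cluster lie. An alpha model overlapped 16 to 19 other gene models and a gamma model 25 or 26. The beta models, 2340 to 5271 bases long, overlapped 3 each. Those 3 are Gm37013, Gm38666 and Gm38667, which run from the alpha cluster into the end of the gamma cluster and held 421.76, 249.84 and 405.17 counts over all libraries.

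Expected counts are estimates that divide a read matching several genes between them, and such sharing showed in the values. A fractional count was recorded for 96.7% of the values of the alpha cluster and 95.2% of those of the gamma cluster, against 8.79% in the beta cluster and 7.74% over all genes. A count of an alpha or gamma isoform can thus hold a share of constant-exon reads, and single isoforms of these clusters are uncertain. A count of a beta gene is nearly always a whole number of reads. The 2 symbols outside the threshold, Pcdha4 and Pcdha7, were at 0 in all 15 libraries, while Gm37013 and Gm38667 carry RefSeq synonyms of these isoforms joined to the gamma cluster. The members nearest inside it, Pcdhgb8 and Pcdha1, had 208.38 and 218.72 counts in total.

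Library totals ran from 939139 to 5713910 counts with a median of 3048530, and the members together held 413.53 to 3022.07 of them. All 56 members passed the filter on low counts (filterByExpr by group), as did 17835 of all genes. The shallowest library, IgG medium 2, had 20 members at 0 and IgG IL-17 4 had 3. Markers of the stromal label were high, with a mean of 1312 FPKM (fragments per kilobase of gene, scaled to library depth) for Col1a1 and 4404 FPKM for Vim, except Thy1, which had 1 to 22 counts per library. Of the 12 neuronal markers, Stmn2, Tubb3 and Nefm, of the neuronal cytoskeleton, were highest at 10.1, 8.96 and 8.47 FPKM, Nefl and Gap43 had 6.31 and 6.53 FPKM, and Dcx and Elavl4, which define young and differentiated neurons, were lowest at 0.555 and 0.656 FPKM. Those first 5 were above every member but Pcdhgc3. The neuronal markers summed to 66.1 to 169.3 CPM (counts relative to library size, scaled with TMM factors) in the Arid5a RIP after IL-17, 131.6 to 307.7 CPM in the IgG RIP after IL-17, 107.9 to 162.0 CPM in the Arid5a RIP in medium and 111.2 to 194.3 CPM in medium IgG libraries. The 6 hematopoietic markers summed to 6.61 to 8.21, 3.15 to 7.28, 11.1 to 14.5 and 6.84 to 15.7 CPM and the 6 epithelial and endothelial ones to 10.9 to 37.1, 28.0 to 50.2, 26.5 to 49.2 and 25.6 to 75.2 CPM in the same group order.

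Pcdhgc3 alone stood above all other members in level. It averaged 29.6 FPKM over the 15 libraries, with 22.2 FPKM in the lowest and 37.4 FPKM in the highest library. The other 55 members averaged 0.685 FPKM (Pcdha6) to 4.13 FPKM (Pcdhb17), with a median of 2.09 FPKM, and their highest value in any library was 8.05 FPKM (Pcdhb2). In counts, Pcdhgc3 supplied 15.3% to 38.0% of all member counts in a library, with a median of 22.0%.

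The level of the other 55 members was set beside that of genes a stromal cell does not use. The 1492 olfactory and vomeronasal receptor genes (symbols Olfr, Vmn1r and Vmn2r), which are read in sensory neurons, had a median of 1.87 FPKM and a highest value of 15.5 FPKM, and 6 of them were at 0 in every library. Their quartiles were 1.04 and 3.05 FPKM, and the median of the 55 members, 2.09 FPKM, lies between them. All members passed the filter on low counts, but only 697 of the receptor genes did. Those 697 had a median of 3.16 FPKM and quartiles of 2.37 and 4.33 FPKM, and the members' median lies below these. The median of all 25239 genes was 2.51 FPKM. Pcdhgc3, in contrast, was above the highest of the receptor genes, and 2486 of all genes were above it. The receptor genes were taken as a measure of reads on genes without use in this cell, and what those reads are was not tested.

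**Figure D1:**
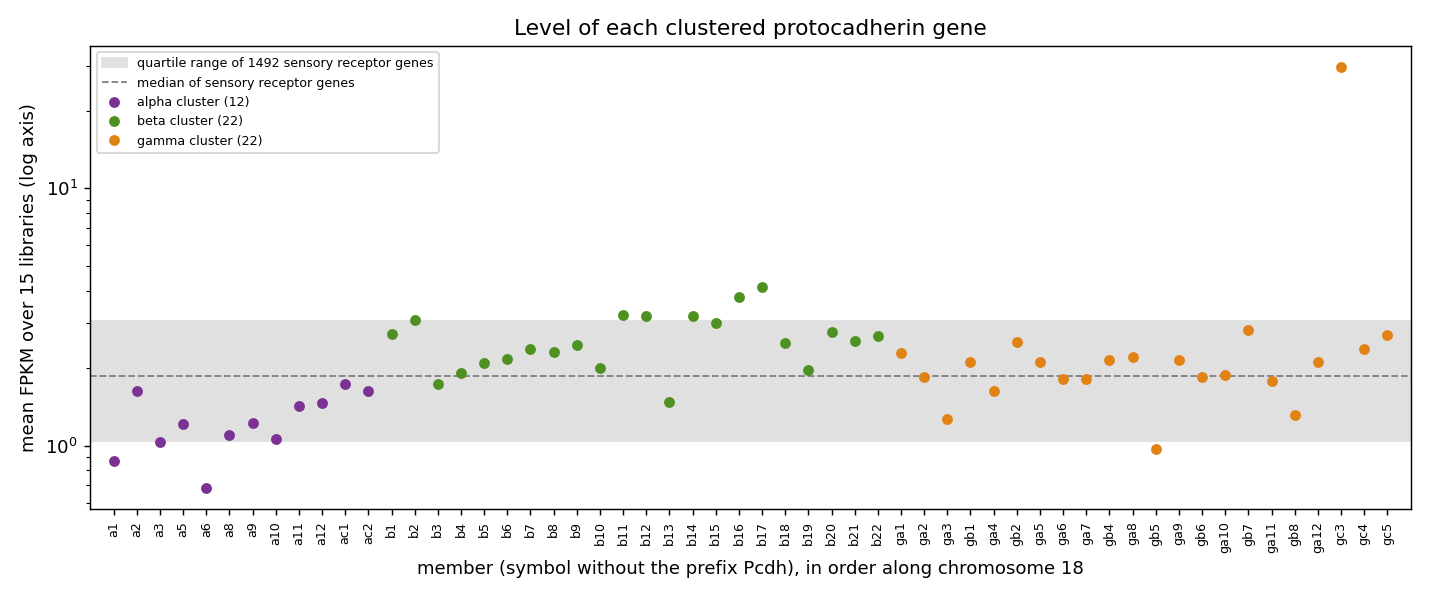
Mean FPKM over 15 libraries (log axis) of the 56 members in their order along chromosome 18, coloured by cluster, with the median (dashed line) and the range between the quartiles (grey band) of 1492 sensory receptor genes. Pcdhgc3 at 29.6 FPKM stands alone, and the other 55 lie between 0.685 and 4.13 FPKM, around the receptor genes' median of 1.87 FPKM.

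Within the alpha cluster the mean levels ran from 0.685 to 1.73 FPKM with a median of 1.22 FPKM, the lowest of the 3 clusters. The best counted variable isoforms were Pcdha2, Pcdha11 and Pcdha12, at 1.62, 1.42 and 1.46 FPKM, and the C-type isoforms Pcdhac1 and Pcdhac2 had 1.73 and 1.64 FPKM. They were the highest of the 12, with a median of 1.68 FPKM, against 1.16 FPKM over the 10 variable isoforms. Pcdhac2, which is needed in mouse serotonergic neurons to spread their axons, ran from 0.35 to 2.88 FPKM over the libraries. Its level was not tested against that of the genes around it.

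The beta cluster ran from 1.48 FPKM (Pcdhb13) to 4.13 FPKM (Pcdhb17) with a median of 2.53 FPKM. Pcdhb16 had the most counts of any member but Pcdhgc3, 1024 in all, and a mean of 3.79 FPKM. The next of the beta cluster were Pcdhb17 and Pcdhb18, with 611.73 and 577.65 counts and means of 4.13 and 2.51 FPKM. Since beta genes share no constant exon, these levels rest little on the division of reads between isoforms.

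In the gamma cluster the 12 gamma A isoforms had 1.27 to 2.29 FPKM and the 7 gamma B isoforms 0.968 to 2.82 FPKM, led by Pcdhgb7 at 2.82 FPKM. Of the 3 C-type isoforms only Pcdhgc3 was high. Pcdhgc4, the isoform on which the survival of cortical interneurons depends in mice, had 2.37 FPKM, and Pcdhgc5 had 2.68 FPKM. The 3 models end at the same constant exons and their starts lie next to each other at 37806410, 37815079 and 37819546, so reads of the constant exons alone do not tell them apart.

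Pcdhgc3 was the member with the smallest error. It had 159, 171, 145 and 100 CPM in Arid5a IL-17 libraries 1 to 4, against 140, 133 and 178 CPM in IgG IL-17 libraries 2 to 4. In medium it had 132, 102, 114 and 93.8 CPM in the Arid5a RIP, against 137, 147, 141 and 118 CPM in the IgG RIP. The groups overlapped in each comparison. Arid5a IL-17 4 lay with the Arid5a medium libraries and below the other 3 of its own group.

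The mean of Pcdhgc3 was 144 ± 31.0 CPM in the Arid5a RIP after IL-17 (SD, n = 4), 150 ± 24.0 CPM in the IgG RIP after IL-17 (n = 3), 110 ± 16.5 CPM in the Arid5a RIP in medium (n = 4) and 136 ± 12.3 CPM in medium with IgG (n = 4). Between the precipitates, Arid5a over IgG, its log2 fold was -0.30 ± 0.16 (SE) in medium and -0.06 ± 0.17 with IL-17, with adjusted p of 0.456 and 0.945 (edgeR's quasi-likelihood test, Benjamini-Hochberg over 17835 genes). With IL-17 over medium its log2 fold was 0.38 ± 0.16 in the Arid5a RIP and 0.15 ± 0.18 in the IgG RIP, with edgeR adjusted p of 0.157 and 0.824. None of these passed the threshold of 0.05, so Pcdhgc3 mRNA was not shown to differ between the precipitates at this depth. The value in the Arid5a RIP stood beside a median of 0.30 for the 5389 well-expressed genes (average log2 CPM of at least 5) in the same comparison, and was 0.06 when the scaling factors were taken from those genes.

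Pcdhga9, the gamma A isoform that led to the choice of the family, had 30.96, 20.08, 52.83 and 31.61 counts in Arid5a IL-17 libraries 1 to 4, against 63.97, 47.78 and 44.81 counts in IgG IL-17 libraries 2 to 4. In medium it had 35.71, 35.55, 25.34 and 54.56 counts in the Arid5a RIP, against 32.49, 0, 7.05 and 8.39 counts in the IgG RIP. Scaled to library size, the Arid5a libraries lay below all IgG libraries with IL-17 and above all of them in medium. The means were 7.53 ± 2.48 CPM (Arid5a IL-17), 17.3 ± 3.90 CPM (IgG IL-17), 12.0 ± 3.21 CPM (Arid5a medium) and 3.10 ± 2.98 CPM (IgG medium).

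The fitted log2 fold of Pcdhga9, Arid5a over IgG, was -1.18 ± 0.50 with IL-17 and 1.75 ± 0.52 in medium, and the difference between them, -2.94 ± 0.72, is the value that chose the family. The larger part of it lay between the IgG groups: IL-17 over medium was 2.26 ± 0.54 in the IgG RIP and -0.67 ± 0.47 in the Arid5a RIP. No p-value is printed for this gene. Where it is counted below as called or under a p threshold, nothing is read from that. Its counts were fractional in 93.3% of the libraries, as for most gamma isoforms.

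**Figure D2:**
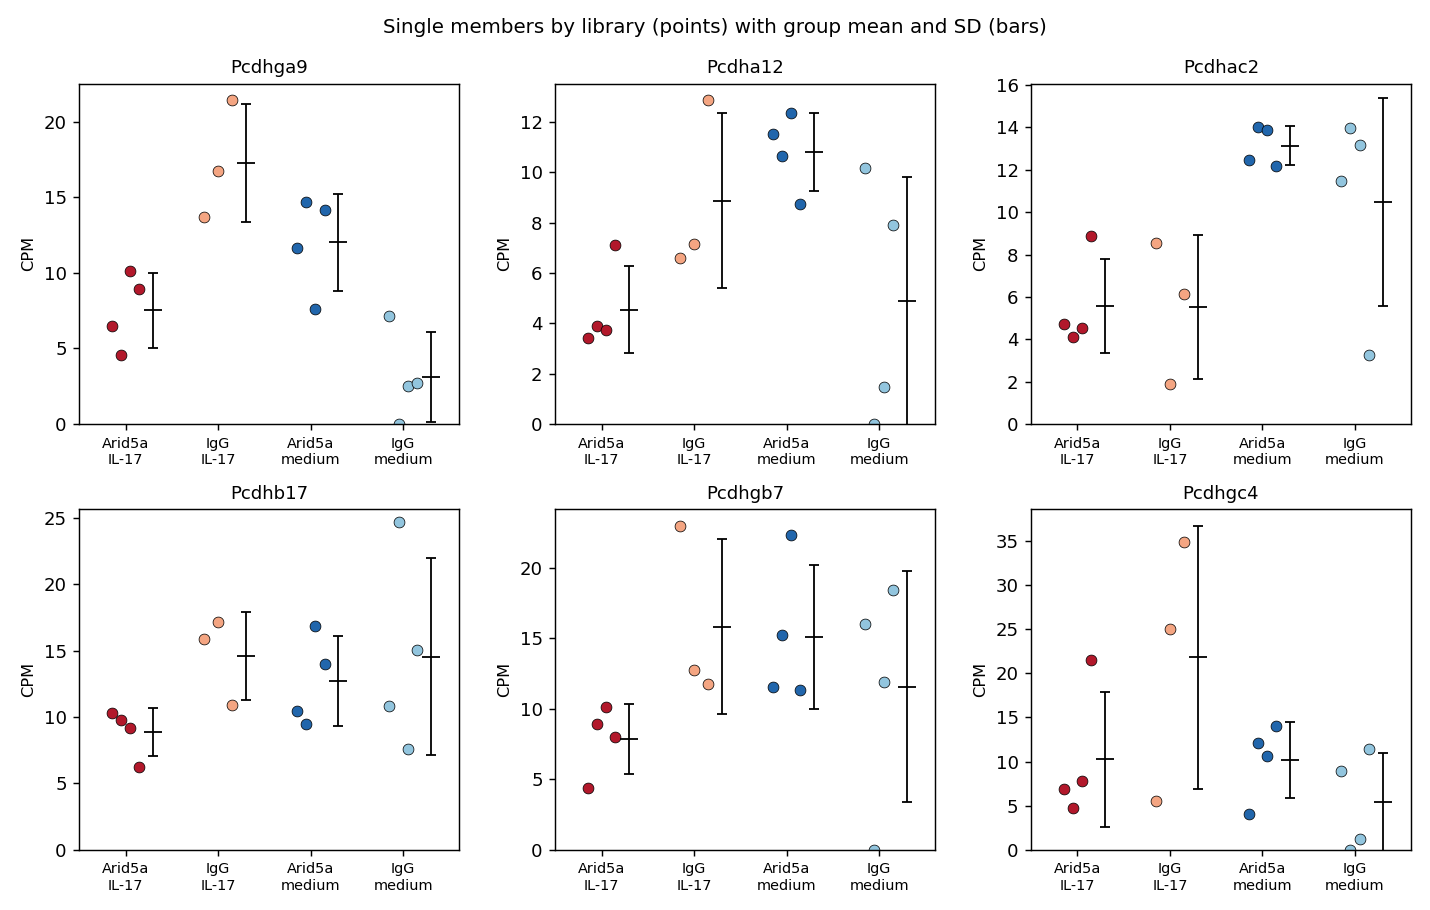
CPM (TMM-scaled counts) of 6 members in each library, with the group mean and SD as bars, in the order Arid5a IL-17 (4), IgG IL-17 (3), Arid5a medium (4) and IgG medium (4). Pcdhga9 is highest in the IgG RIP after IL-17 (mean 17.3 CPM) and lowest in the IgG RIP in medium (3.10 CPM), and Pcdhac2 is lower in all Arid5a IL-17 than in all Arid5a medium libraries.

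Apart from Pcdhga9, the members were tested in 6 comparisons, and edgeR called none of the other 55 in any of them. For Arid5a over IgG, averaged over medium and IL-17, 0 of 56 members passed, as against 0.0449% of all genes. At an unadjusted p below 0.05 the count was 0 of 56, against 5.44% of all genes. DESeq2 called 0 (0.27% of the genes it fitted) and limma voom with quality weights 0 (0.0561%). The median log2 fold of the members was 0.10, beside 0.00 over all genes tested, with 36 members above 0 and 20 below. The widest values were 0.81 ± 0.42 for Pcdhb3 and -0.56 for Pcdha9.

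In medium alone, 50 of the 56 members had a log2 fold above 0 for Arid5a over IgG, with a median of 0.52 beside 0.04 over all genes. None passed (0.628% of all genes did), 5, Pcdhga9 among them, had an unadjusted p below 0.05 (12.8% of all genes), and DESeq2 and voom called 0 each (1.38% and 0.673% of all genes). In 4 members, Pcdha2, Pcdhb7, Pcdhga9 and Pcdhgb6, every Arid5a library was above every IgG library, a pattern that 5.01% of all genes showed, and no member had it the other way (4.06%). Pcdhb7 had 8.80, 15.5, 10.2 and 10.4 CPM in the Arid5a RIP, against 6.84, 1.12, 2.57 and 5.22 CPM in the IgG RIP, and a log2 fold of 1.38 ± 0.55 (edgeR adjusted p = 0.268). Pcdha2 had 12.2, 8.30, 15.5 and 9.17 CPM, against 5.25, 5.13, 2.38 and 7.08 CPM. Pcdhga9 is in both counts, so nothing is read from them.

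With IL-17 the signs were mostly the opposite: 42 of 56 members had a log2 fold below 0 for Arid5a over IgG, with a median of -0.44 beside -0.01 over all genes, and -0.26 without IgG IL-17 2. Again none passed (0.0673% of all genes did), 4, again with Pcdhga9, had an unadjusted p below 0.05 (8.95%), and DESeq2 and voom called 0 each (0.244% and 3.2%). In 4 members, Pcdhb17, Pcdhb20, Pcdhga9 and Pcdhgb7, every Arid5a library was below every IgG library, against 4.38% of all genes, and in none above (5.31%). Pcdhb17 had 10.3, 9.80, 9.19 and 6.23 CPM in the Arid5a RIP, against 15.9, 17.2 and 10.9 CPM in the IgG RIP, and a log2 fold of -0.73. Pcdhgb7 had 4.37, 8.89, 10.1 and 8.0 CPM, against 23.0, 12.7 and 11.7 CPM, a log2 fold of -1.03 ± 0.50 (edgeR adjusted p = 0.544).

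Of the 6 comparisons, IL-17 over medium in the Arid5a RIP had the members' median farthest from 0. The log2 fold was below 0 in 54 of 56 members and above 0 only in Pcdhgc3 (0.38) and Pcdhga5 (0.33), and the median was -0.68 beside -0.12 over all genes tested. No member passed in edgeR, where 5.65% of all genes did, and 11 had an unadjusted p below 0.05 (22.3% of all genes). The other tests called more: DESeq2 called 2, Pcdhac2 and Pcdhgb1, both lower (6.02% of all genes), and voom with quality weights called 28, of which 27 were lower and 1, Pcdhgc3, was higher, where it called 42% of all genes. In 10 members every IL-17 library was below every medium library, against 9.29% of all genes, and in none above (10.7%).

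The smallest edgeR adjusted p in this comparison was 0.0695 in gamma B and 0.129 among the C-type alpha isoforms. It was 0.138 in gamma A, 0.157 among the C-type gamma isoforms, 0.185 over the variable alpha isoforms and 0.186 in the beta cluster. The genes described next are thus not a ranking by p. Pcdhac2 had 4.70, 4.12, 4.53 and 8.86 CPM after IL-17, against 12.5, 14.0, 13.9 and 12.2 CPM in medium, without overlap, and a log2 fold of -1.25 ± 0.49 (edgeR adjusted p = 0.129). Pcdhgb1, described here because DESeq2 called it, had 5.03, 3.16, 4.57 and 7.80 CPM, against 14.5, 14.5, 15.1 and 10.4 CPM, again without overlap, and a log2 fold of -1.40 ± 0.47 (edgeR adjusted p = 0.0695). Pcdha12 had 3.42, 3.89, 3.75 and 7.11 CPM, against 11.5, 10.7, 12.3 and 8.74 CPM. In all 3 genes library 4 of the Arid5a RIP after IL-17 was the highest of its group and the nearest to medium. Pcdhgb2 had a log2 fold of -0.91 ± 0.42 and Pcdhac1 one of -1.07, with edgeR adjusted p of 0.192 and 0.193.

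The 22 beta genes had a median log2 fold of -0.55 in this comparison, beside -0.99 over the 12 of the alpha cluster and -0.68 over the 22 of the gamma cluster. These differences between clusters were not tested. Pcdhb16, the best counted of them, had 22.2, 16.4, 18.6 and 14.4 CPM after IL-17, against 24.4, 24.8, 27.7 and 20.5 CPM in medium, with 1 library overlapping and a log2 fold of -0.44 ± 0.36. Pcdhb18 had 7.13, 11.2, 5.94 and 10.2 CPM, against 13.7, 8.67, 13.6 and 12.7 CPM, a log2 fold of -0.51 ± 0.44. For both the fold is little more than its error.

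Pcdhga5, a gamma A isoform, and the C-type isoforms Pcdhgc4 and Pcdhgc5 had folds above 0 or nearer to it than the members' median. So had Pcdha11 of the alpha cluster and many others not described singly. A median leaves as many members above it as below, so this sets none of them apart. Pcdhga5 had 16.1, 6.32, 10.2 and 16.3 CPM in the Arid5a RIP after IL-17, against 11.3, 9.32, 9.38 and 8.85 CPM in medium. Pcdhgc4 had 6.92, 4.78, 7.82 and 21.6 CPM, against 4.09, 12.1, 10.7 and 14.0 CPM, a log2 fold of -0.01 ± 0.62. Pcdhgc5 had 10.6, 6.30, 7.47 and 13.4 CPM, against 16.1, 5.88, 14.9 and 6.48 CPM. Pcdha11 had 7.87, 5.23, 3.79 and 10.8 CPM, against 6.42, 11.4, 9.27 and 7.13 CPM, a log2 fold of -0.30. All 4 overlapped widely between the groups.

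In the IgG RIP, IL-17 over medium gave a median log2 fold of 0.22 beside 0.00 over all genes, with 40 members above 0. Single libraries moved this median, to 0.09 without IgG IL-17 2 and to 0.44 without IgG medium 4. Only Pcdhga9 was called, higher, against 0.493% of all genes, and 4 members, Pcdhga9 included, had an unadjusted p below 0.05 (11.1% of all genes). DESeq2 called 1, again Pcdhga9 (1.35%), and voom 0 (0.252%). Since this fold is 1 side of the difference that chose the family, the call adds nothing. Pcdhb20 and Pcdhga9 were the 2 members with every IL-17 library above every medium library (4.28% of all genes), and none had it the other way (3.34%). Pcdhb20 had 14.8, 11.2 and 13.3 CPM, against 8.61, 0, 2.17 and 4.80 CPM, a log2 fold of 1.55 ± 0.55 (edgeR adjusted p = 0.235). Pcdhgc4 followed with 1.82 ± 0.69 (adjusted p = 0.294 in edgeR), from 5.52, 25.04 and 34.9 CPM, against 8.91, 0, 1.26 and 11.4 CPM.

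For IL-17 over medium averaged over both RIPs, 0 of 56 members passed in edgeR, where 3.26% of all genes did, and 5, Pcdhga9 among them, had an unadjusted p below 0.05 (16.4%). DESeq2 and voom each called 1, Pcdhac2, lower, where they called 3.87% and 7.67% of all genes. Its log2 fold was -1.05 ± 0.37 (edgeR adjusted p = 0.124), with 8.56, 1.87 and 6.14 CPM in the IgG RIP after IL-17, against 11.5, 14.0, 13.2 and 3.28 CPM for IgG in medium. The members' median was -0.24, beside -0.05 over all genes, and -0.14 without IgG medium 4. The difference between the Arid5a over IgG folds with IL-17 and in medium had a median of -0.89 over the members, beside -0.05 over all genes, with 51 of 56 below 0. It called 1 member, Pcdhga9, and 0.976% of all genes, and since it chose the family nothing is read from it.

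**Figure D3:**
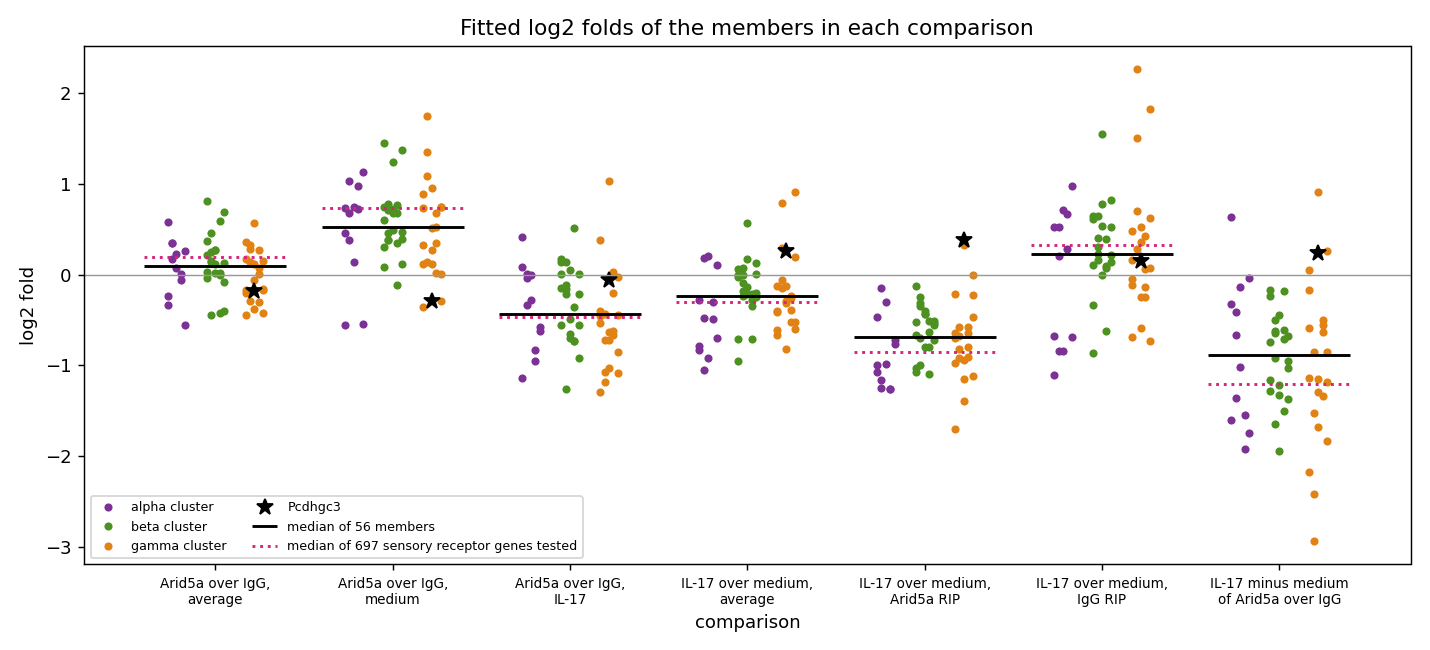
Fitted log2 fold of each member in 6 comparisons and in the difference of the Arid5a over IgG folds, coloured by cluster with Pcdhgc3 as a star, with the median of the 56 members (black line) and of the 697 sensory receptor genes tested (dotted line). The 2 medians lie on the same side of 0 in every comparison, as in the Arid5a RIP with IL-17 over medium, -0.68 and -0.85, whereas Pcdhgc3 lies on the other side of 0 there.

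The shared direction was followed through the summed level of the 55 members other than Pcdhgc3. They summed to 324.2, 279.6, 297.7 and 508.6 CPM in Arid5a IL-17 libraries 1 to 4, against 506.9, 473.1 and 453.2 CPM in IgG IL-17 libraries 2 to 4. In medium they summed to 550.2, 552.2, 630.3 and 505.6 CPM in the Arid5a RIP, against 433.1, 317.6, 338.4 and 460.6 CPM in the IgG RIP. Arid5a IL-17 4 stood at the level of the medium libraries, apart from the other 3 of its group. The Arid5a and IgG libraries did not overlap in medium, and with IL-17 they overlapped through library 4 alone.

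The group means of this sum were 353 ± 106 CPM in the Arid5a RIP after IL-17 (SD, n = 4), 478 ± 27.2 CPM in the IgG RIP after IL-17 (n = 3), 560 ± 51.8 CPM in the Arid5a RIP in medium (n = 4) and 387 ± 70.1 CPM in medium with IgG (n = 4). Arid5a over IgG was thus 0.738 with IL-17 and 1.44 in medium, and IL-17 over medium was 0.630 in the Arid5a RIP and 1.23 in the IgG RIP. A sum over chosen members is given with no p. The same order of the groups held in the alpha cluster, with means of 56.5, 75.5, 103.1 and 71.0 CPM in the same group order, and in the beta cluster, with 153.8, 194.3, 229.7 and 153.2 CPM, apart from the near tie of the last and the first. It did not hold in the gamma cluster with Pcdhgc3 included, where the IgG RIP after IL-17 was highest (285.9, 358.4, 337.0 and 298.9 CPM). The gamma A isoforms (82.1, 107.5, 129.9 and 89.7 CPM) and gamma B isoforms (40.4, 64.7, 75.7 and 53.7 CPM) kept the order.

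The sensory receptor genes moved beside the members. Their sums were 1680, 1805, 1408 and 4062 CPM in Arid5a IL-17 libraries 1 to 4, against 3373, 3251 and 2386 CPM in IgG IL-17 libraries 2 to 4. In medium they were 3235, 4094, 4781 and 3303 CPM in the Arid5a RIP, against 2161, 2008, 1987 and 3090 CPM in the IgG RIP. Arid5a over IgG was 0.745 with IL-17 and 1.67 in medium, and IL-17 over medium was 0.581 in the Arid5a RIP and 1.3 in the IgG RIP. In each of these comparisons the ratio of the receptor genes lay on the same side of 1 as that of the 55 members. The median log2 folds ran alike: over the 697 receptor genes that were tested they were 0.74 (Arid5a over IgG in medium), -0.47 (with IL-17), -0.85 (IL-17 over medium in the Arid5a RIP) and 0.33 (in the IgG RIP).

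**Figure D4:**
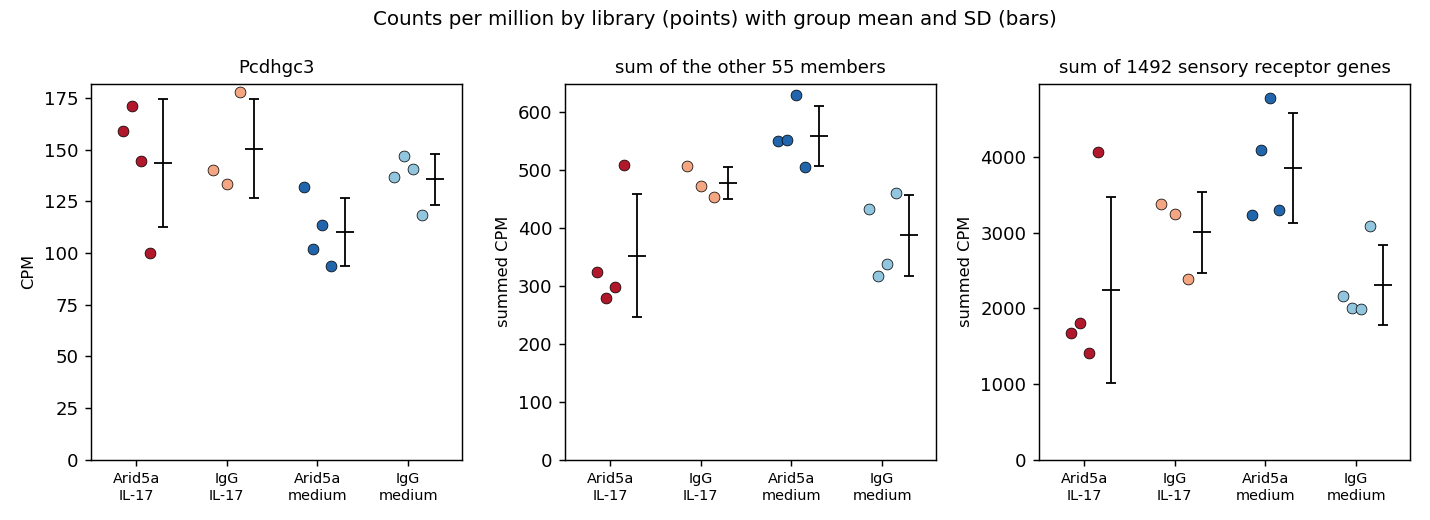
CPM of Pcdhgc3 (left), summed CPM of the other 55 members (middle) and summed CPM of 1492 sensory receptor genes (right) in each library, with the group mean and SD as bars. The middle and right panels have the same shape, with Arid5a IL-17 libraries 1 to 3 below all other Arid5a libraries and library 4, at 508.6 and 4062 CPM, among the Arid5a medium libraries.

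Over the 15 libraries, the sum of the 55 members and the sum of the receptor genes had a Pearson correlation of 0.93 and a Spearman correlation of 0.94. Without Arid5a medium 3 and Arid5a IL-17 3, the libraries farthest from the median of the receptor sum, Pearson's value was 0.89. Pcdhgc3 ran the other way, with -0.74 and -0.78, and -0.79 without the same libraries. The median log2 folds of the 5389 well-expressed genes also lay opposite to those of the receptor genes. They were -0.19 and 0.15 for Arid5a over IgG in medium and with IL-17. For IL-17 over medium they were 0.30 in the Arid5a RIP and -0.04 in the IgG RIP. A direction against the receptor genes was thus not particular to Pcdhgc3. Single members had Pearson correlations with the receptor sum from -0.04 (Pcdhb5) to 0.90 (Pcdhb11), with a median of 0.49 and 51 of 55 above 0. Both sums of a library share its depth, its scaling factor and its group, so these values describe the libraries and carry no p. Beta genes, for which few counts were fractional, gave 0.92 as a sum and the alpha cluster 0.87, each over the same 15 libraries.

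When the receptor sum entered the fit as a covariate, the members' median log2 fold was 0.06 for Arid5a over IgG in medium, -0.08 with IL-17, -0.24 for IL-17 over medium in the Arid5a RIP and 0.03 in the IgG RIP. That is nearer to 0 in each than the 0.52, -0.44, -0.68 and 0.22 without it. The receptor sum itself differed between the groups, in medium without overlap of the Arid5a and IgG libraries. Covariate and group thus cannot be told apart, and no conclusion is drawn from the smaller folds. The covariate acted on all genes too: it took the share of all genes called for IL-17 over medium in the Arid5a RIP to 0.202%, against 5.65% without it, and their median to -0.03, against -0.12. Leaving out Arid5a IL-17 1, 2 and 3, a choice made after seeing the data, brought the median of IL-17 over medium in the Arid5a RIP to -0.25, and leaving out library 4 brought it to -0.90, where 4 members, Pcdhac1, Pcdhac2, Pcdhb11 and Pcdhgb1, were called lower and Pcdhgc3 higher (12.8% of all genes called). What sets the level of the receptor genes in a library, and its part in the members' values, was not tested. In bulk precipitates, fewer molecules of a transcript per cell and fewer cells with it cannot be told apart.

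**Figure D5:**
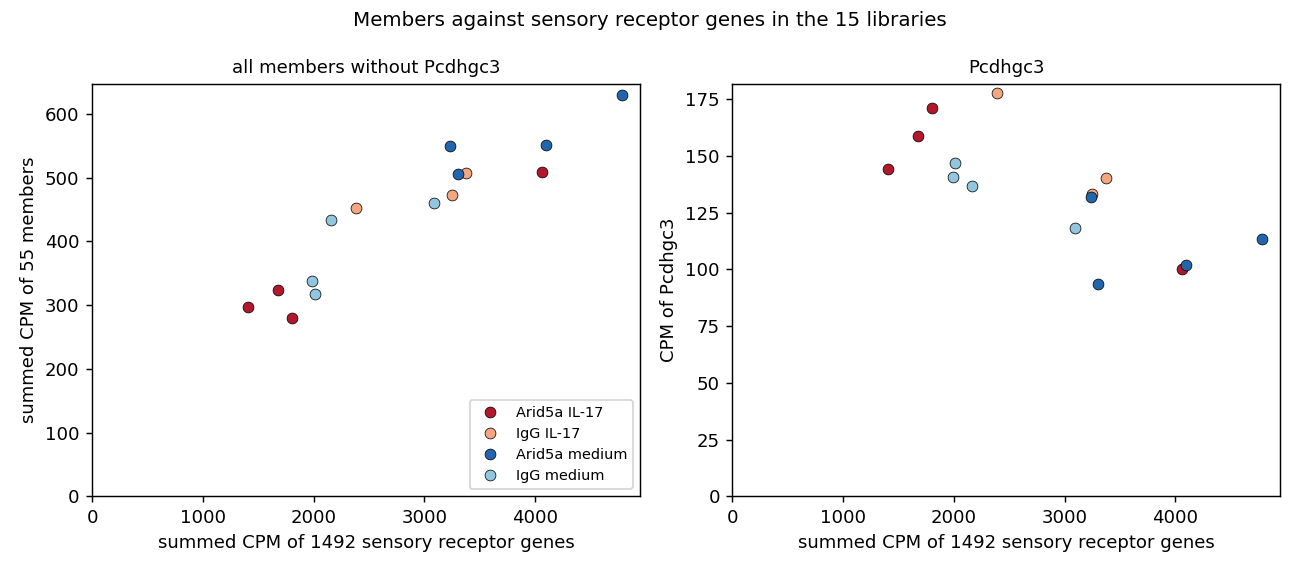
Summed CPM of the 55 members other than Pcdhgc3 (left) and CPM of Pcdhgc3 (right) against the summed CPM of 1492 sensory receptor genes, 1 point per library coloured by group. The left panel rises along a line (Pearson 0.93 over 15 libraries) and the right panel slopes down (-0.74).

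The spread between libraries of a group was wider than counting alone gives. The median coefficient of variation of the 55 members was 43.5% in the Arid5a RIP after IL-17, 47.5% in the IgG RIP after IL-17, 26.3% in the Arid5a RIP in medium and 72.0% in the IgG RIP in medium, where counting error alone would give 19.1%, 21.0%, 17.9% and 28.7%. Pcdhgc3 varied by 21.6%, 15.9%, 14.97% and 9.10% in the same order. The medium IgG group was the widest, and it holds the shallowest library.

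Genes around and upstream of the clusters were looked at through lists chosen with earlier results known. Of 35 regulators of the clusters (CTCF, cohesin, chromatin and DNA methylation genes), 3 were called higher and 1 lower with IL-17 over medium in the Arid5a RIP, where the median of the list was 0.30, equal to that of the well-expressed genes. Over all genes 5.65% were called in this comparison, and of the 5389 well-expressed genes 833 were called higher and 32 lower. The higher ones were Smc3, a cohesin subunit (0.46), Wapl, which releases cohesin from DNA (0.57), and Cbx5, a heterochromatin protein (0.42), and the lower one was Tet1, which oxidises methylated cytosine (-0.96). Ctcf itself had 0.18 (edgeR adjusted p = 0.512), Rad21 0.36 (0.0764) and Smchd1, which keeps the clusters silent, 0.49 (0.0612). Wapl was also called in the average over both RIPs.

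Of 34 signalling partners of protocadherins and cadherins, 5 were called higher in the same comparison and 0 lower, beside a list median of 0.34, so the calls of both lists stand beside many among well-expressed genes and are not particular to them. They were Marcks, a protein kinase C substrate downstream of gamma protocadherins (0.77), Nckap1 of the WAVE complex (0.58), the small GTPases Rac1 (0.53) and Rhoa (0.56), and Ctnnb1, which encodes beta-catenin (0.56). Ptk2, the focal adhesion kinase that gamma protocadherins inhibit, had 0.26 (edgeR adjusted p = 0.282). Of 19 neighbouring genes tested, only Zmat2 was called (0.58), while Taf7, which lies between the beta and gamma clusters, had 0.07 and Diaph1 0.25.

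Among 12 non-clustered protocadherins, of which 10 had a log2 fold below 0 (median -0.45) in that comparison, Pcdh19 was called higher (0.80, 91.8 ± 26.7 CPM after IL-17 against 52.8 ± 3.20 CPM in medium, edgeR adjusted p = 0.0466) and Pcdh12, known from vessel walls, lower (-1.47). Pcdh19 was the only gene of that list called in the average over both RIPs, at 0.84 (edgeR adjusted p = 0.0062), with 0.87 in the IgG RIP. Pcdh7, Pcdh9 and Pcdh18 had -1.13, -0.33 and -0.15 in the Arid5a RIP and were not called. Of 38 other cadherins tested, Cdh23, Dchs2 and Fat2 were called lower (-1.58, -1.0 and -0.88) and none higher. Of all 17835 genes tested, 5.65% were called, 145 lower and 863 higher. The median of that list was -0.89, with 31 of 38 below 0. Cdh2 and Cdh11, the cadherins of mesenchymal cells, had 0.38 and 0.94 and were not called. In this list Dchs2 was also lower in the average over both RIPs, -1.05 (edgeR adjusted p = 0.0065).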

How the data were processed

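The authors deposited expected counts and FPKM for 25239 genes in 15 libraries, and the values show the expected counts to be unnormalised. The submitters' processing notes list R 4.3.0, DESeq2 1.36.0, RSEM 1.3.1 and STAR 2.7.9 beside the build mm10. What each did, which annotation was counted and with which strand option is not given in the sources used here, and per the labels' protocols the library kit was stranded. Coordinates are those of RefSeq on GRCm38.p6.

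The deposited expected counts were rounded, scaled with TMM factors and fitted in R 4.3.3 with edgeR 4.0.16 (robust quasi-likelihood, 4 group means, 17835 genes passing filterByExpr), and genes at a Benjamini-Hochberg adjusted p below 0.05 are called. The procedure was tested on simulated data. The deposited FPKM were used as given for levels between genes, and as log2(FPKM + 1) or log2(FPKM + 0.1) with limma 3.58.1 as alternatives. The other alternatives were upper-quartile factors, library totals, factors from well-expressed genes, DESeq2 1.42.0, voom with quality weights, no filter, a stricter filter (in some group, 10 counts in all libraries), a replicate block, a fit to the compared libraries alone, the receptor sum as a covariate, and libraries left out. Values after ± are the SD between libraries or, for folds, an SE derived from the edgeR fold and its test statistic. Both include the spread between libraries, and such an SE can be unstable for a fold near 0. A count of 0 is subject to counting error.

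The members and lists were chosen with earlier results of these data known. Named in full were Pcdhga9, members called in any comparison and all C-type isoforms. So were the 3 members of each cluster with the highest mean count among those that are not C-type. From the lists of regulators, neighbours, signalling partners, non-clustered protocadherins and cadherins, every called gene and 12 fixed genes were named, and from the marker lists some genes only. Other members were named after their values were seen.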

Additional observations from a re-analysis of the deposited data

Results flagged for a closer look

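In 60 tests of a group of 4 libraries (15 members, 4 summed levels of members and receptor genes), the library farthest from its group lay apart from the others in 5, and chance alone flags about 1 in 20 groups. In the Arid5a RIP after IL-17, library 4 had 4062 CPM on sensory receptor genes, against 1408 to 1805 CPM in libraries 1 to 3. The same library had 7.11 CPM for Pcdha12, against 3.42 to 3.89 CPM, and 8.86 CPM for Pcdhac2, against 4.12 to 4.70 CPM. In the IgG RIP in medium, library 4 had 3090 CPM on receptor genes, against 1987 to 2161 CPM in the others. Pcdhgc5 had 22.3 CPM in IgG medium library 2, the shallowest of all, against 11.04 to 12.7 CPM.

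The Arid5a over IgG fold of Pcdhga9 differed between IL-17 and medium by -2.94 on the log2 scale. This is the value on which the family was chosen.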

How the results depend on the processing

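Same-numbered libraries did not deviate together (r from -0.22 to 0.20 in 21 pairs, 2 above 0.1, against -0.13 to 0.22 in 63 other pairs), so the numbers were not taken as pairing. With a replicate block, 0 members were called for IL-17 over medium in the IgG RIP and 0 for the difference of folds, and the other counts stayed at 0. The call of Pcdhga9 in the IgG RIP was also lost (0) with voom, only the libraries compared, both FPKM settings, the covariate, without IgG medium 2 and IgG IL-17 4, and without Arid5a IL-17 1 to 3. These settings called 0.105% to 0.399% of all genes. The call of Pcdhga9 in the difference of folds was lost (0) with upper-quartile factors, library totals and factors from well-expressed genes. It was lost (0) too with the covariate and without Arid5a IL-17 1 to 3. Each of these settings called 0% of all genes in that difference. Both FPKM settings also gave 0 (0.014% of all genes), and voom called 6 (9.86% of all genes). Leaving out single libraries gave 0 to 1 for the IgG RIP (0.23% to 1.45% of all genes) and for the difference of folds (0% to 4.06%). The count was 0 for the IgG RIP without each IgG IL-17 or Arid5a medium library, Arid5a IL-17 1, 2 or 3, or IgG medium 3 or 4, and likewise for the difference. In medium, Arid5a over IgG gave 0 to 1, with Pcdhga9 called without IgG medium 1, where 1.98% of all genes were called. For IL-17 over medium averaged over both RIPs, DESeq2 and voom called 1 each (3.87% and 7.67% of all genes).

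For IL-17 over medium in the Arid5a RIP, DESeq2 called 2, voom 28 and only the libraries compared 8, all 8 lower, where 18.9% of all genes were called. Single libraries left out gave 0 to 5. There were 5 without Arid5a IL-17 4 (12.8% of all genes) and 1 (Pcdhgb1) without IgG medium 2 (10.2%). Without IgG medium 2 and IgG IL-17 4 together there were 4 (13.6% of all genes). The causes were not tested, beyond the share of all genes called, which changed too. The members' median moved by over 0.43 in 6 cases: to 1.03 with log2(FPKM + 0.1) and 0.062 with the covariate (Arid5a over IgG in medium), to -0.24 with the covariate and -0.25 without Arid5a IL-17 1 to 3 (IL-17 in the Arid5a RIP), and to -1.53 with log2(FPKM + 0.1) and -0.23 with the covariate (difference of folds). Its sign held in all alternatives but 1 of 28, the average Arid5a over IgG without Arid5a IL-17 4 (-0.05). No called value changed sign. Beside counting error, the spread between libraries limits single members.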
